A study of Homo sapiens with 6 samples.

Results

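The genes described here are 7 transcription factors of the gut endoderm: the caudal homeobox genes CDX1 and CDX2, the GATA factors GATA4 and GATA6, the HMG-box factor SOX9, the Krüppel-like factor KLF5 and the ETS factor ELF3. They were taken by gene name from the 58735 named genes of the count table, and each name matched 1 row. Expression was measured by poly(A) RNA sequencing of LS174T, a cell line from a human colorectal adenocarcinoma, which its labels call goblet-like, meaning that it resembles the mucus-secreting cells of the gut. There were 3 wild-type libraries and 3 libraries whose genotype label is FXYD3 knockout, written knockout-labelled below, each from about 2000000 pelleted cells. The labels name no treatment or time point, and they leave unsaid how the gene was edited and whether a group's libraries are from different cultures or from 1 clone. The p-values therefore reflect library-to-library spread, part of which may be technical.

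CDX1 and CDX2 bind DNA through a homeodomain and set intestinal identity in the hindgut, and loss of CDX2 from the developing mouse intestine gives epithelium with features of the foregut. GATA4 works mainly in the proximal intestine and stomach, whereas GATA6 is also present in the colon. SOX9 marks crypt progenitors and Paneth cells, KLF5 supports proliferation in the crypt, and ELF3 is an epithelium-specific factor linked to the differentiation of absorptive and goblet cells.

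Named genes received 15417232 to 19453217 counts per library. FXYD3, the gene named in the label, was not lower in the knockout-labelled libraries (200 counts over the 3 wild-type libraries and 295 over the 3 knockout-labelled ones; log2 fold change 0.54, edgeR adjusted p = 0.0522), so every direction below follows the labels alone. The labelled tissue was checked against 10 markers of colon epithelium. All 10 were tested, 1 was higher, 2 were lower and 7 did not pass. The keratin gene KRT8 (6929 ± 463 and 7328 ± 213 CPM) and the cell adhesion gene EPCAM (749 ± 26.8 and 692.3 ± 37.2 CPM) were abundant in both groups, while KRT20 was at 2.10 ± 0.400 and 1.85 ± 0.496 CPM. CDH1, the E-cadherin gene, fell from 38.1 ± 2.11 to 29.6 ± 0.812 CPM (edgeR adjusted p = 0.00127), and GPA33, described further on, fell too. LGALS4, a galectin gene, rose from 670.8 ± 46.5 to 781.6 ± 21.7 CPM (edgeR adjusted p = 0.00822), a call lost without knockout-labelled library 2. Levels are in CPM, counts scaled to a library total of 1000000 after the TMM correction for library size and composition, as mean ± SD over 3 libraries unless single libraries are given.

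Of the 7 factors, 6 were expressed well enough to be tested, and CDX1 and GATA6 fell, KLF5 rose, and CDX2, SOX9 and ELF3 did not pass the test. The fall of CDX1 was the largest of these changes, while those of GATA6 and KLF5 were below 1.5-fold. GATA4 had no count in any library. A gene was called where edgeR's quasi-likelihood test gave an adjusted p below 0.05 over all 15351 tested genes. By that rule 24.3% of the tested genes were called, 12.0% higher and 12.4% lower, and 26.8% of the 1036 tested genes to which the deposited table gives a transcription factor family. The groups did not overlap in CPM for 37.2% of all tested genes and 40.3% of those factor genes, and for 3 of the 6 tested members. The members' 3 calls among 6 tested genes are too few to set them apart from that background. Because these are bulk samples, fewer cells that make a transcript and less transcript per cell cannot be told apart.

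**Figure D1:**
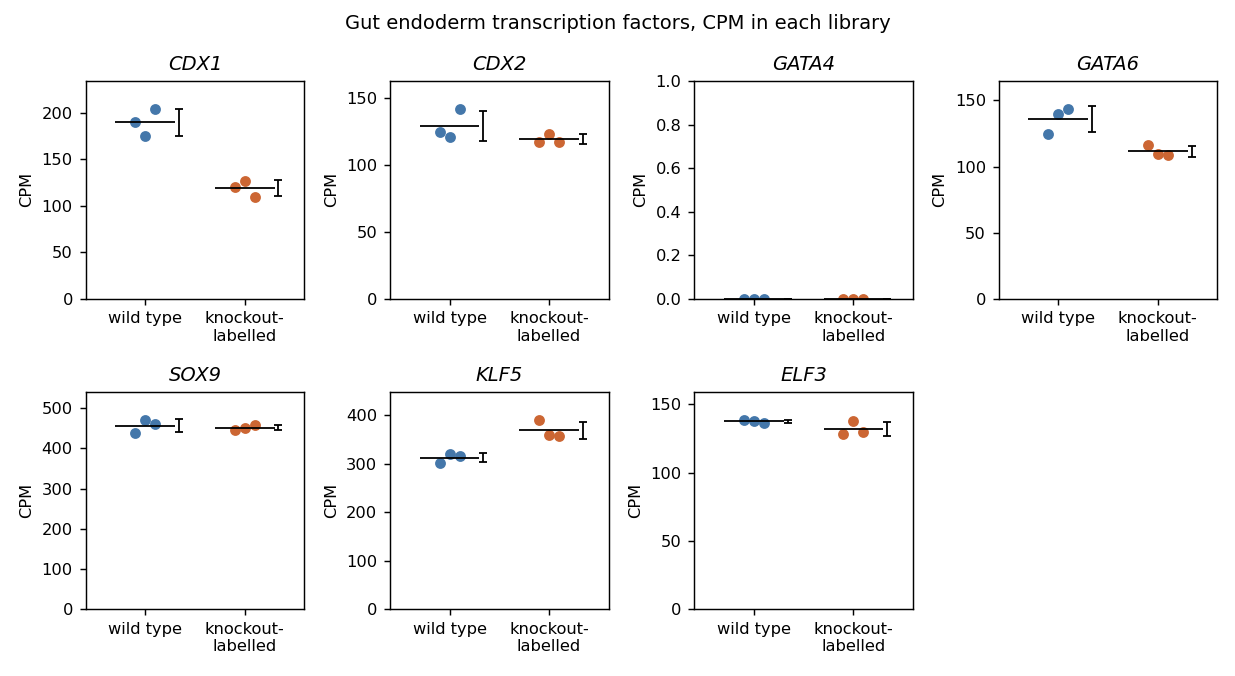
CPM of each of the 7 factors (vertical axes, each starting at 0) in the 3 wild-type (blue) and 3 knockout-labelled (orange) libraries; points are libraries, horizontal bars are means and the capped lines are the SD. The groups separate for CDX1, GATA6 and KLF5 and overlap for CDX2, SOX9 and ELF3, and GATA4 is at 0 throughout.

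CDX1 (ENSG00000113722; GRCh38 chromosome 5, 150166795 to 150184558, plus strand) was at 189.9, 175.3 and 203.6 CPM in the wild-type libraries and at 120.3, 126.5 and 109.3 CPM in the knockout-labelled ones. Every knockout-labelled library lay below every wild-type library. In edgeR's fit CDX1 fell by 0.67 on the log2 scale (SE 0.06, 95% interval -0.81 to -0.54, edgeR adjusted p = 6.5e-09), a level 37.4% lower with an interval from 31.3 to 42.9%. Within each group the SD was 7.47% and 7.35% of the mean, against 1.76% and 2.21% from counting alone, so the spread between libraries was wider than counting error. No other named gene of the table overlaps CDX1. Of all tested genes, 4.96% had a lower log2 fold change, and among the 57 tested homeobox genes 8 did.

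CDX2 (ENSG00000165556; GRCh38 chromosome 13, 27962137 to 27971139, minus strand) was at 124.1, 120.4 and 141.2 CPM in wild type and at 117.1, 123.2 and 117.3 CPM in the knockout-labelled libraries. The groups overlapped, and wild-type library 3 was the highest of the 6. Its log2 fold change was -0.11 (SE 0.06, edgeR adjusted p = 0.231), with a 95% interval of -0.24 to 0.02 that reaches from a level 15.2% lower to one 1.47% higher. A fall of CDX2 as large as that of CDX1 lies outside this interval.

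The balance between the caudal genes was also read within each library, where it does not depend on scaling. The wild-type libraries had 1.53, 1.46 and 1.44 CDX1 counts for each CDX2 count, and the knockout-labelled libraries 1.03, 1.03 and 0.932. All 3 knockout-labelled ratios were below all 3 wild-type ratios. The mean log2 ratio was lower by 0.57 in the knockout-labelled libraries (two-sided exact permutation test, p = 0.1, which is the smallest p that 3 libraries against 3 can give). Per kilobase of gene length the mean ratio went from 3.46 to 2.33. By the annotated lengths, 1758 bases for CDX1 and 4122 for CDX2, CDX1 was the more abundant caudal transcript per length in both groups. In the knockout-labelled libraries this rests on those lengths, since the counts themselves were close to equal.

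The RefSeq promoter table (GRCh38.p14) holds windows around the starts of CDX2, GATA6, KLF5 and ELF3, and stretches are shown for CDX2 and KLF5. That for CDX2, chr13:27969418-27969446 on the minus strand, lies inside the first exon of a longer annotated CDX2 transcript, and it is shown because the cores of a caudal and a GATA motif overlap there. The capitals mark TTTAT, the core bound by CDX factors, and the reverse complement of AGATAA, a form of the GATA core.

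CDX2: cctccctccccTTTATCTtttaaaatgca

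Both strands were searched for both motifs in windows from 250 bases before to 50 bases after each start. TTTAT was found in 34.9% and AGATAA in 10.3% of all 35116 windows, so a match is common and does not mark a binding site. The CDX2 window held TTTAT 2 times and AGATAA 1 time. Those of GATA6 and ELF3 each held TTTAT 1 time and AGATAA 0 times.

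GATA6 (ENSG00000141448; GRCh38 chromosome 18, 22169443 to 22202528, plus strand) was at 124.6, 140.03 and 143.2 CPM in wild type and at 116.1, 109.7 and 108.4 CPM in the knockout-labelled libraries. The groups did not overlap, but the gap between them was narrower than the range of the wild-type libraries. GATA6 fell by 0.29 on the log2 scale (SE 0.06, 95% interval -0.42 to -0.16, edgeR adjusted p = 0.000965), a level 18.1% lower. Of the 9 tested genes in the zinc finger GATA family of the deposited table, none had a lower log2 fold change. GATA6 overlaps 4 named genes on the opposite strand, in whole or in part. The strand setting of the counting is not given, so whether reads from the shared stretches were separated by strand is not known. The most abundant of these 4 genes, GATA6-AS1, had 156 counts over the wild-type and 184 over the knockout-labelled libraries, against 6952 and 5760 for GATA6.

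GATA4 (ENSG00000136574) had 0 counts in each of the 6 libraries. A count of 0 allows up to 3 counts, or 0.153 to 0.194 CPM depending on the library. Taking 3 counts over a whole group as the limit, the level of GATA6 per kilobase was at least 2612-fold higher than that of GATA4 in wild type and at least 2166-fold higher in the knockout-labelled libraries. The planned ratio of GATA4 to GATA6 could therefore not be compared between the groups. Of the other 4 GATA factors, GATA2, better known from blood progenitors, was tested, at 28.2 ± 0.647 CPM in wild type and 31.1 ± 1.62 CPM in the other group (log2 fold change 0.15, edgeR adjusted p = 0.217). GATA1, GATA3 and GATA5 had at most 1 count in any library.

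SOX9 (ENSG00000125398; GRCh38 chromosome 17, 72121020 to 72126420, plus strand) was at 439.6, 470.4 and 459.7 CPM in wild type and at 446.01, 449.7 and 458.5 CPM in the knockout-labelled libraries. The knockout-labelled values all lay within the wild-type range. Its fitted log2 difference was -0.02 (SE 0.06, 95% interval -0.13 to 0.10, edgeR adjusted p = 0.871), and its sign changed with the scaling. With 23374 and 23384 counts in the groups, depth was not what limited this comparison. SOX9-AS1 spans the gene on the opposite strand and had 144 and 177 counts.

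KLF5 (ENSG00000102554; GRCh38 chromosome 13, 73054976 to 73077542, plus strand) was at 302.2, 318.99 and 316.3 CPM in wild type and at 389.4, 357.9 and 357.1 CPM in the knockout-labelled libraries. All knockout-labelled libraries lay above all wild-type libraries, with knockout-labelled library 1 the highest. KLF5 rose by a log2 fold change of 0.24 (SE 0.06, 95% interval 0.12 to 0.35, edgeR adjusted p = 0.00262), or 1.18-fold. No other named gene of the table overlaps it. RefSeq gives KLF5 a pair of starts, and counts per gene do not show which was used. The 250 bases before the first of them, chr13:73054726-73054975 on the plus strand, are shown because KLF5 is the member that rose. Capitals mark its single match to the caudal core, read as the reverse complement of TTTAT, and no AGATAA was found there.

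KLF5: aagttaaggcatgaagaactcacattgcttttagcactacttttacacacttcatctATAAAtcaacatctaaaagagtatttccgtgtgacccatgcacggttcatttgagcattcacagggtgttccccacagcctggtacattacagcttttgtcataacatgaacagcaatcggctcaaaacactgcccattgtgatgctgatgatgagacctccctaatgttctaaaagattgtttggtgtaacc

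The window of the other KLF5 start held 0 matches to either motif. No match says only that these letters are not in that window.

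ELF3 (ENSG00000163435; GRCh38 chromosome 1, 202007945 to 202017188, plus strand) was at 138.3, 137.7 and 136 CPM in wild type and at 127.9, 137.8 and 129.6 CPM in the knockout-labelled libraries. The groups overlapped through knockout-labelled library 2. For ELF3 the fitted log2 difference was -0.06 (SE 0.06, 95% interval -0.17 to 0.06, edgeR adjusted p = 0.508). ELF3-AS1, which overlaps ELF3 on the opposite strand, had 376 and 433 counts over the groups, against 7030 and 6849 for ELF3.

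Levels of different genes were compared per kilobase of the length that the deposited table gives for each gene. In wild type the order was SOX9 at 116.03 ± 3.98, CDX1 at 107.8 ± 8.05, KLF5 at 80.3 ± 2.32, GATA6 at 34.5 ± 2.52, CDX2 at 31.2 ± 2.69 and ELF3 at 19.1 ± 0.163 CPM per kilobase. SOX9 and CDX1 overlapped in their libraries, as did GATA6 and CDX2, while the other neighbours in the order did not. In the knockout-labelled libraries KLF5, at 94.6 ± 4.73, stood above CDX1, at 67.5 ± 4.96 CPM per kilobase, with no overlap between them. SOX9 was again first at 114.7 ± 1.63, and CDX2, at 28.9 ± 0.840, and GATA6, at 28.2 ± 1.04 CPM per kilobase, overlapped again. The order depends on the annotated lengths, which are 1758 bases for CDX1 and 7191 for ELF3.

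**Figure D2:**
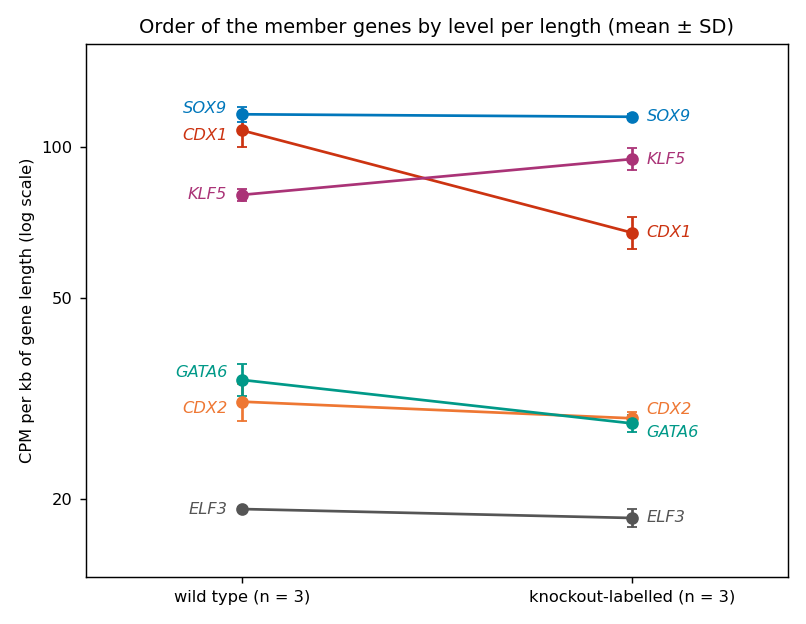
Mean level per kilobase of gene length (log axis) in wild-type and knockout-labelled libraries for the 6 detected factors, with SD over 3 libraries. CDX1 goes from 107.8 to 67.5 and KLF5 from 80.3 to 94.6 CPM per kilobase, and their lines cross.

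Among the 1036 tested genes with a transcription factor family, SOX9 ranked 15 by level per kilobase in wild type and CDX1 ranked 16. KLF5 ranked 22, GATA6 48, CDX2 56 and ELF3 114. In the knockout-labelled libraries the ranks were 12 for SOX9, 15 for KLF5, 23 for CDX1, 62 for CDX2, 65 for GATA6 and 115 for ELF3. Within its own family in wild type, CDX1 ranked 1 and CDX2 ranked 3 of 57 homeobox genes. GATA6 ranked 2 of 9 in the zinc finger GATA family, SOX9 2 of 30 HMG-box genes, KLF5 2 of 475 C2H2 zinc finger genes and ELF3 5 of 20 ETS genes. In these families calls went both ways: 9 homeobox genes were called higher and 15 lower, and 70 C2H2 zinc finger genes higher and 35 lower. The GATA family had 2 higher and 1 lower, the HMG-box genes 3 and 6, and the ETS genes 3 and 3. Over all tested genes the shares were 12.0% higher and 12.4% lower.

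The other factors of intestine and hindgut changed in part. Of 16 such genes 11 were tested, 1 was higher, 3 were lower and 7 did not pass, with a median log2 fold change of -0.0098 against 0.0021 over all tested genes. FOXA3, a forkhead factor of gut endoderm, fell from 19.2 ± 0.388 to 6.17 ± 0.935 CPM (log2 fold change -1.63, SE 0.12, edgeR adjusted p = 5.8e-11). Its relative FOXA2 fell from 18.9 ± 0.628 to 14.3 ± 0.795 CPM, and KLF4, a factor of differentiated and goblet cells, from 167.9 ± 15.5 to 124.4 ± 12.1 CPM. HNF4G, a nuclear receptor of enterocytes, rose from 35.1 ± 0.637 to 43.4 ± 4.19 CPM (edgeR adjusted p = 0.00701), a call that was lost without knockout-labelled library 3 (log2 fold change 0.25, adjusted p = 0.0551). HNF4A, a nuclear receptor of the same family, was tested and did not pass. ISX, a homeobox gene known as a CDX2 target, was below the filter on low counts, at 8, 13 and 9 counts in wild type against 2, 1 and 3 counts under the knockout label, with no overlap. With no filter beyond 1 count, the number of lower genes in the list went from 3 to 4.

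**Figure D3:**
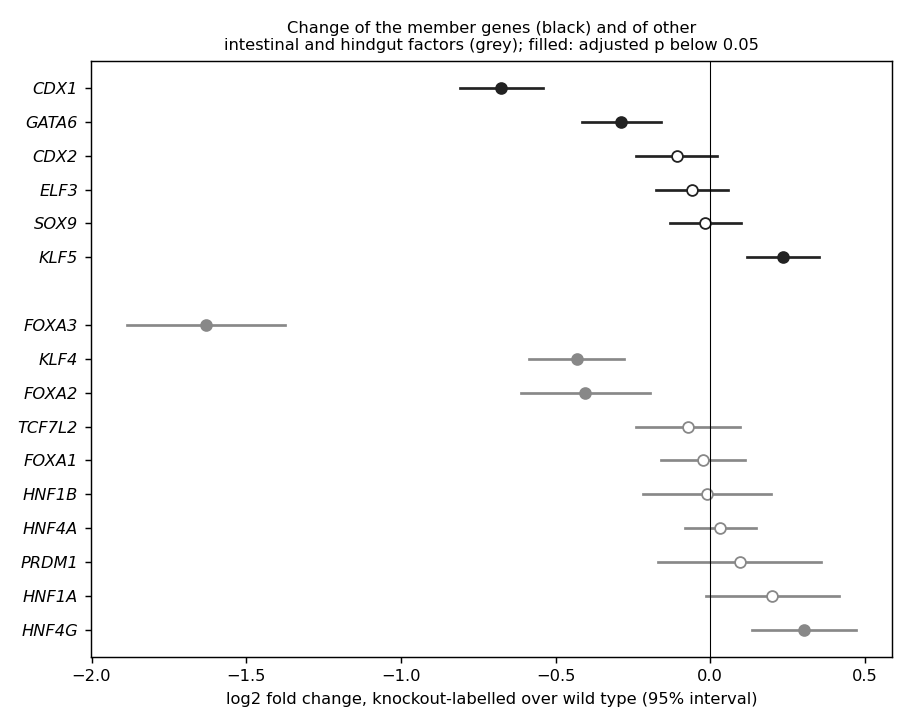
Log2 fold change, knockout-labelled over wild type (horizontal axis), with 95% intervals for the 6 tested member genes (black) and 10 of the 11 other tested intestinal and hindgut factors (grey); filled circles passed an edgeR adjusted p of 0.05. CDX1 at -0.67 and GATA6 at -0.29 lie below 0 and KLF5 at 0.24 above it, and FOXA3 at -1.63 is farthest from 0.

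No foregut factor was called. Of 9 foregut and gastric factors 4 were tested and none passed, among them PDX1, the ParaHox gene of pancreas and duodenum beside CDX2 on chromosome 13, with 7.68 ± 1.66 and 8.17 ± 0.764 CPM. PAX9, the most abundant by the mean of both groups, had 8.78 ± 1.03 and 10.2 ± 0.506 CPM (edgeR adjusted p = 0.257). At an unadjusted p below 0.05 there were also 0 of the 4, and DESeq2 and limma voom called 0. NKX2-1, NKX6-3, ONECUT1 and SOX21 had 0 counts in all libraries. The other caudal and ParaHox genes, CDX4, GSX1 and GSX2, had 0 counts as well.

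Relatives of SOX9, KLF5 and ELF3 were read from their families. Of 14 other SOX genes 5 were tested and 1 was called, SOX4, a progenitor factor, which rose from 115.2 ± 1.63 to 128.2 ± 0.524 CPM (log2 fold change 0.15, edgeR adjusted p = 0.0459); that call was lost in 9 of 15 alternatives, DESeq2 among them. Of 16 other Krüppel-like factors 13 were tested, 4 were higher and 3 lower. KLF6 rose from 132.3 ± 5.30 to 211.6 ± 4.16 CPM (log2 fold change 0.68, SE 0.06, edgeR adjusted p = 2.4e-10) and KLF15 from 7.85 ± 1.02 to 12.7 ± 0.461 CPM, while KLF11 fell from 56.1 ± 2.53 to 39.99 ± 1.19 CPM. The change of KLF5 was smaller than those of KLF6 and KLF15, whose 95% intervals lie above its own.

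Of 6 other ELF and related ETS genes 5 were tested, 1 was higher and 1 lower. EHF, another epithelial factor of the ELF3 type, rose from 163.2 ± 8.89 to 185.7 ± 11.3 CPM (edgeR adjusted p = 0.0229), and that call was lost in 4 of 15 alternatives. SPDEF, a goblet cell factor, fell from 2.81 ± 0.550 to 1.57 ± 0.149 CPM (edgeR adjusted p = 0.0245), a call lost in 5 of 15 alternatives.

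Genes that are known to respond to each factor were then counted from lists, for description only. Over all tested genes 12.0% were called higher and 12.4% lower, with a median log2 fold change of 0.0021. No list was tested as a set against these shares. Among 18 intestinal genes linked to CDX factors 13 were tested, with 5 higher and 4 lower and a median log2 fold change of 0.06. ABCB1, a drug efflux pump, rose from 45.6 ± 2.69 to 88.4 ± 3.08 CPM, HEPH, a copper oxidase of iron export, from 89.4 ± 2.65 to 138.2 ± 2.34 CPM, and GUCY2C, the guanylin receptor, from 26.96 ± 1.17 to 39.4 ± 2.55 CPM. GPA33, an intestinal surface antigen, fell from 270.9 ± 11.1 to 176.8 ± 8.55 CPM. The list thus held changes both ways. The number of lower genes in it was 2 without wild-type library 3 and also 2 without knockout-labelled library 2. The number of higher genes was 4 without knockout-labelled library 2. It was 6 with upper-quartile scaling, total counts, DESeq2 or limma voom. CDH17, an intestinal cadherin, and the microvillus gene VIL1 did not pass the test (log2 fold changes 0.06 and 0.14, edgeR adjusted p = 0.53 and 0.0542); both were picked after their values were seen.

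Of 14 gut genes linked to GATA factors 11 were tested, with 2 higher (1 where at least 1 CPM in 3 libraries was required) and 6 lower and a median log2 fold change of -0.34. TFF1, a trefoil peptide of the stomach, fell from 20.5 ± 2.10 to 5.24 ± 0.798 CPM, and LGR5, a crypt stem cell receptor, from 47.7 ± 2.37 to 21.8 ± 1.73 CPM (log2 fold change -1.14, SE 0.08, edgeR adjusted p = 3.2e-11). DAB2, an endocytic adaptor, rose from 3.69 ± 0.631 to 10.1 ± 0.724 CPM. The sucrase-isomaltase gene SI, in the CDX list as well, had 3 counts in all wild-type libraries and 53 in all knockout-labelled ones, a ratio of 17.5 with an exact counting interval from 5.66 to 87.3. Of these SI counts, 29 came from knockout-labelled library 3. TFF1 is also one of 10 gastric markers, of which 4 were tested and all 4 were lower. Their summed level was 228.7 to 257.8 CPM in wild type and 28.4 to 38.8 CPM in the knockout-labelled libraries, with GKN1 and CLDN18 at 0. Most of that sum was MUC5AC, the gastric surface mucin gene, which fell from 209.4 ± 16.3 to 21.3 ± 5.25 CPM (edgeR adjusted p = 4.2e-06). CTSE, an aspartic protease gene, fell from 11.5 ± 0.193 to 5.78 ± 0.843 CPM, and TFF2, another trefoil peptide gene, from 1.87 ± 0.130 to 0.682 ± 0.215 CPM. The part of these markers in the GATA list was not tested.

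**Figure D4:**
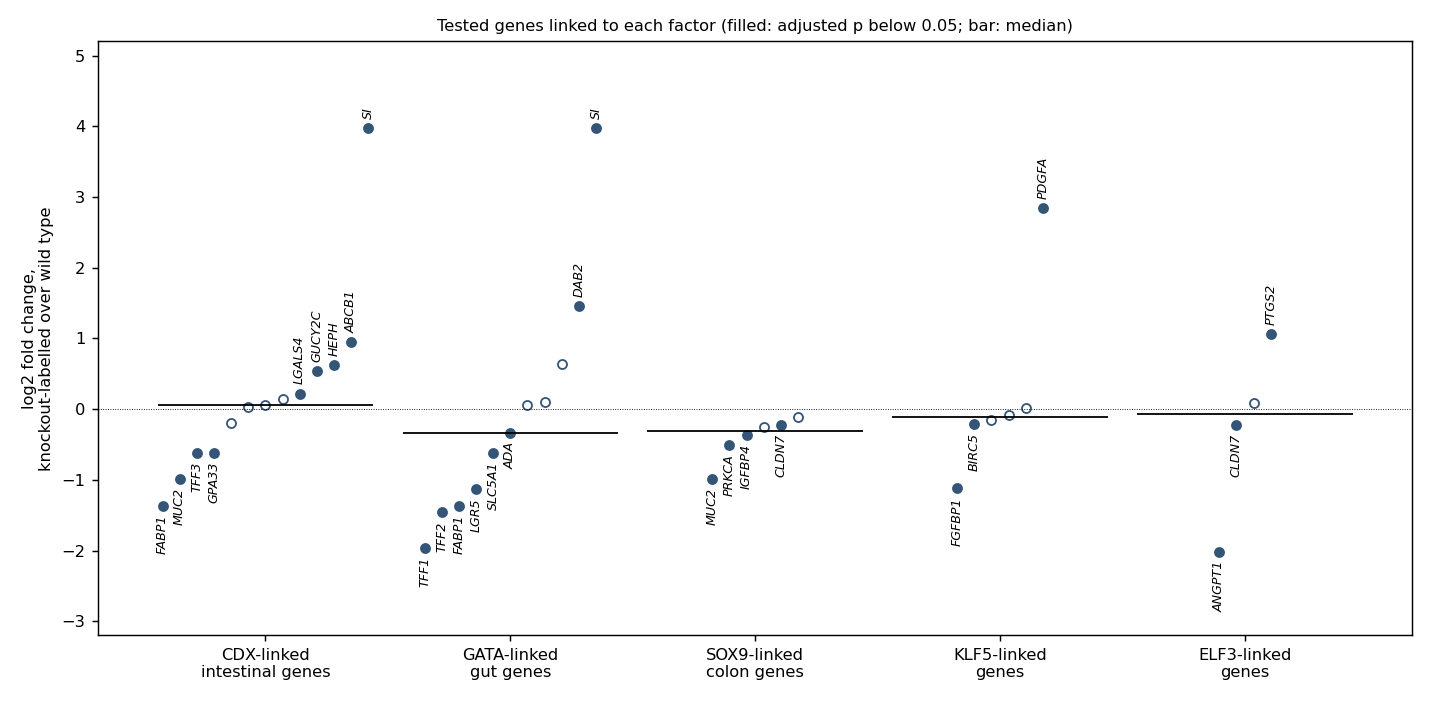
Log2 fold change, knockout-labelled over wild type (vertical axis), of each tested gene in the lists linked to CDX, GATA, SOX9, KLF5 and ELF3; filled circles passed an edgeR adjusted p of 0.05, bars are medians, and SI, MUC2, FABP1 and CLDN7 stand in more than 1 list. The value drawn for SI is the fitted one and rests on 3 wild-type counts. CDX-linked genes lie on both sides of 0 and the called SOX9-linked colon genes lie below it.

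In the colon list of SOX9 all 6 genes were tested, 4 were lower and 0 higher. The median was -0.31 on the log2 scale, against 0.0021 over all tested genes, of which 12.4% were called lower. The list was chosen with earlier results of these data known, and a shared fall of its genes was not tested. It records no expected direction for any gene, so its median has no single reading for SOX9. CDX2 is also in this list, with the values given above. PRKCA, a protein kinase C gene, fell from 33.8 ± 1.85 to 23.7 ± 0.764 CPM, the tight junction gene CLDN7 from 240.7 ± 13.5 to 206.1 ± 3.63 CPM and the binding protein gene IGFBP4 from 394.4 ± 32.4 to 304.8 ± 11.6 CPM. The mucin gene MUC2 fell by 0.99 on the log2 scale. SOX9 itself did not pass the test in these libraries, as given above. Of 7 cartilage genes, the SOX9 partners SOX5 and SOX6 included, 0 could be tested, and their summed level was at most 1.79 CPM in any library.

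Of 6 genes linked to KLF5 in proliferation and growth all were tested, with 1 higher and 2 lower. FGFBP1, a carrier of fibroblast growth factors, fell from 286.5 ± 25.5 to 131.8 ± 7.84 CPM (log2 fold change -1.12, SE 0.06, edgeR adjusted p = 5e-13), while KLF5 rose. PDGFA, a platelet-derived growth factor gene, rose from 0.235 ± 0.0122 to 1.72 ± 0.567 CPM, which is low in both groups. BIRC5, an inhibitor of apoptosis needed in mitosis, fell from 131.6 ± 9.14 to 114.2 ± 4.52 CPM, a call lost in 4 of 15 alternatives. Of 7 genes linked to ELF3 4 were tested, with 1 higher, PTGS2, the inducible cyclooxygenase (5.11 ± 0.746 to 10.7 ± 0.334 CPM), and 2 lower, CLDN7 and the low-level gene ANGPT1, which was not tested where at least 1 CPM in 3 libraries was required.

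The genes whose CPM followed each factor most closely over the 6 libraries were found among 10482 other tested genes that code for protein and average 5 CPM or more, by Pearson's r of log2 CPM. These r are descriptions, since the points share the group difference and the scaling, and the highest of so many will be close to 1. For CDX1 they were PHGDH, an enzyme of serine synthesis (520.6 ± 31.6 to 349.98 ± 17.5 CPM), and CKAP4, both with r = 0.999. GATA6 was closest to SMU1 and GPR137B (both r = 0.992), and KLF5 to TENT5A (r = 0.994) and CSKMT (r = 0.993). CDX2 was closest to GTPBP6 (r = 0.995) and TRAPPC4 (r = 0.994), SOX9 to MTSS1L (r = 0.983) and SCYL3 (r = 0.974), and ELF3 to HBEGF (r = 0.993) and RNF43 (r = 0.991).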

How the data were processed

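The authors deposited 1 table of raw read counts per gene for 6 libraries, unnormalized. Alignment and counting tools named by the submitters' processing notes are HISAT2 2.0.5 and featureCounts 1.5.0-p3; the notes also list a mouse build, although the gene identifiers are human. All 58735 identifiers are in GENCODE release 29, and all 7 members have the start and end given there (GRCh38). Neither strand setting nor treatment of multiply mapped reads is given in those sources. Columns were matched to samples through the library names in the labels. Rows without a gene name (0.13 to 0.25% of the counts) were left out. The members and gene lists were chosen with earlier results of these data known.

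edgeR 4.0.16 (R 4.3.3) was run with TMM normalization, filterByExpr at a minimum count of 10, a robust quasi-likelihood fit of knockout-labelled against wild type without covariate, and Benjamini-Hochberg adjustment over all 15351 tested genes. CPM, and CPM per kilobase with the deposited gene lengths, were computed from the counts, and intervals from counts cover counting error only. Single ratios were tested by exact permutation over libraries (scipy 1.17.1). From each list the text names up to 4 called genes by smallest p, or the most abundant tested one. The called genes within 100 kb of a member were also named, with only some of the others there. The 2 genes most like each member in log2(CPM + 0.5) were named for every tested member. Ranks among transcription factors were added after the values were seen. So were other genes named from a list: KRT8, EPCAM, KRT20, CDH17, VIL1, HNF4A, ISX, GATA1, GATA3, GATA5, VIM, LYZ and those at 0 counts. In the plot of log2 fold changes, 1 listed gene is not reported here.

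Alternatives were DESeq2 1.42.0, limma voom (limma 3.58.1), DESeq2 size factors, upper-quartile and total-count scaling, other filters, no robust estimation, a replicate block and each library left out. Counts were simulated from these libraries with the same dispersion for every gene, and 15329 genes were fitted. Changes were put only into genes above a minimum count. In that simulation edgeR recovered 78.1% of genes changed 1.5-fold, 89.7% changed 2-fold and 100% changed 4-fold, with 17 of 191 calls false. Smaller changes were not simulated, and these rates need not hold for the real libraries.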

Additional observations from a re-analysis of the deposited data

How the results depend on the processing

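CDX1, GATA6 and KLF5 kept their direction and passed the threshold in all 15 alternatives run for each, and CDX2 and ELF3 kept their direction and passed it in none, so that 3 members were called throughout. The log2 fold change of CDX1 ranged from -0.69 to -0.65 under other tools, scalings and filters and from -0.73 to -0.62 with a library left out. For GATA6 the ranges were -0.30 to -0.26 and -0.35 to -0.25, and for KLF5 0.22 to 0.26 and 0.19 to 0.26. The highest adjusted p was 0.00963 for GATA6 and 0.0426 for KLF5 (without wild-type library 1), and the lowest for CDX2 was 0.0555 (without wild-type library 2). The sign of SOX9 changed with upper-quartile scaling (0.0042), with total counts (0.0079) and without wild-type library 2 (0.0037), and the values with a library left out ran from -0.047 to 0.0037; the adjusted p was at least 0.727 in all alternatives. Over all genes 2946 to 3867 were called under other settings, and 2711 (without wild-type library 1) to 4590 (without wild-type library 2) with a library left out. The CDX1 to CDX2 log2 ratio stayed lower, by -0.59 to -0.52, with a library left out. Of 38 named genes of the lists, 31 kept their direction and call in every alternative in which they were tested, and PDX1 log2 fold change turned once (-0.036 without wild-type library 1; range with a library left out -0.036 to 0.27). No pairing by replicate number was seen. Same-numbered libraries deviated from their group means with correlations of 0.0277, -0.0977 and -0.123, and differently numbered ones with -0.0495 to 0.146. Such values cannot decide whether libraries of the same number were handled together, because each mean is over 3 libraries. With the replicate number as a block, all genes called came to 2953, log2 fold changes were -0.67 for CDX1, -0.29 for GATA6 and 0.24 for KLF5, and no member's call changed; the CDX1 to CDX2 difference within numbers was -0.57. The GATA4 alternatives could not be run, since the gene has no counts.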

Other observations

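Named genes within 100 kb of the 7 factors were read as neighbours. Of 49 such genes 18 were tested and 4 were called, against 24.3% called among all tested genes. These 4 calls do not set the neighbours apart from that background. Near CDX2, URAD, an enzyme gene of uric acid breakdown, rose from 1.33 ± 0.163 to 2.84 ± 0.748 CPM (edgeR adjusted p = 0.00632), at a low level, while PDX1 and LINC00543 did not pass. Beside KLF5, PIBF1, a centrosomal protein gene, rose from 12.7 ± 0.522 to 16.8 ± 0.962 CPM (edgeR adjusted p = 0.00594). Near GATA4, which had no counts, FDFT1, the squalene synthase gene, fell from 649.5 ± 16.2 to 496.4 ± 15.7 CPM and CTSB, a lysosomal protease gene, from 303.1 ± 14.7 to 270.8 ± 10.7 CPM (edgeR adjusted p = 0.0388). None of the 3 tested neighbours of CDX1 was called by edgeR, and 0 had an unadjusted p below 0.05.

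Markers of cell types outside the epithelium were mostly at or near 0. COL1A2, PTPRC and CD3E had 0 counts in all libraries, and VIM was at 0.0193 ± 0.0334 CPM in wild type. Among the 7 mesenchymal markers COL3A1, a fibrillar collagen gene, rose from 0.313 ± 0.0901 to 5.63 ± 0.453 CPM, while PDGFRB did not pass. Among 5 immune markers CD14, a lipopolysaccharide co-receptor, fell from 3.71 ± 0.963 to 0.388 ± 0.141 CPM, and LYZ, which Paneth cells also make, did not pass. Of 5 liver markers 1 was tested, SERPINA1, a protease inhibitor gene, which fell from 6.88 ± 0.482 to 3.82 ± 0.0968 CPM; AFP was at 0. The part of these markers in the members' changes was not tested.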
